A study of Rattus norvegicus with 10 samples.

Results

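The estrogen and progesterone receptor axis was followed through 10 genes, taken as every probe set whose platform annotation gives 1 of their symbols alone. They are the receptor genes Esr1 and Pgr, their responsive genes Greb1, Areg, Wnt4, Tnfsf11 and Tff3, and the luminal transcription factor genes Foxa1, Gata3 and Spdef. They had 13 of the 31099 probe sets on the rat array, and 11 of these, for 9 genes, passed a filter that removed the 25% with the lowest mean signal. Both probe sets of Tnfsf11 fell below it.

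Mammary tumors had been raised in female Sprague-Dawley rats with DMBA, a chemical carcinogen given once by mouth at 100 mg/kg, and those profiled were of histological grade II. The final samples (n = 5) came from rats aged 19 weeks that had received adriamycin, a topoisomerase II inhibitor, at 1 mg/kg weekly for 6 weeks into a tail vein. The basal samples (n = 5) were needle biopsies of the same 5 tumors, taken at 12 weeks of age before any adriamycin. The tumors are coded 09I1, 11D2, 12I1, 29I1 and 43D1, and wherever 5 levels follow each other below they stand in this order of tumors. The design text calls the final sample a needle sample and the sample labels call it the whole tumor. No tumor of the later age without adriamycin was analysed here, and the code numbers in the sample titles do not overlap between final and basal samples. Drug, age, kind of sample and whatever these codes stand for cannot be told apart. The labels do not say whether the tumors came from separate rats, so the p-values measure the spread between tumors.

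In the mammary gland, estrogen acts through the estrogen receptor of a subset of luminal cells and induces the progesterone receptor. These hormone-sensing cells signal to their neighbours through secreted factors, among them amphiregulin, Wnt4 and RANK ligand. FOXA1 and GATA3 help the estrogen receptor reach its sites in chromatin in human breast cancer cells, and DMBA tumors of the rat are a classic model of hormone-dependent growth.

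The stretches before the transcription start are shown for Pgr, the receptor gene that varied most, for Gata3, the member whose level was most like that of Pgr over the 10 arrays, and for Areg, a secreted ligand gene whose level varied little. Each runs 5′ to 3′ on the gene's strand over the 250 bases before the start in RefSeq's GRCr8 table: chr8:14354148-14354397 on the + strand for Pgr, chr17:73553298-73553547 on the + strand for Gata3 and chr14:17265642-17265891 on the - strand for Areg. Capitals mark matches to the searched motifs.
Pgr: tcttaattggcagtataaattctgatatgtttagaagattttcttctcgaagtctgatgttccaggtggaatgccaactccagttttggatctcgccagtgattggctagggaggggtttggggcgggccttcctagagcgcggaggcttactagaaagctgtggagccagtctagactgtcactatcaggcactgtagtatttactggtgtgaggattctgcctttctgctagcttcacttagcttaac
Gata3: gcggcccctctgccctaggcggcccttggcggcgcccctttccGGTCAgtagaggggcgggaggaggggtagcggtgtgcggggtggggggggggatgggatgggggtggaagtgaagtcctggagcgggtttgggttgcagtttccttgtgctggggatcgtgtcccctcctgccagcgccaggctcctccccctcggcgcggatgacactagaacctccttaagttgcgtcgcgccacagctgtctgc
Areg: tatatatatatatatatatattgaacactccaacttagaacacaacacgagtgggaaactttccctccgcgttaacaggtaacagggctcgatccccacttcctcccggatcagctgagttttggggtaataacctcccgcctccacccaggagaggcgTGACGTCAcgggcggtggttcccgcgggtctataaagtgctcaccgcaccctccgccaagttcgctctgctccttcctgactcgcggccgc
Both strands were searched for the full estrogen response element GGTCANNNTGACC, its half-site GGTCA (which the full element contains), the cAMP response element TGACGTCA, the GATA motif AGATAA and the forkhead motif TGTTTAC. Of the 10 genes, 8 had an entry in the table, and Greb1 and Foxa1 had none. The full element was in 0 of the 8 windows and in 0.0239% of all 33469 windows of this length. The half-site was in 3 of the 8 (Gata3, Spdef and Tff3), against 35.4% of all windows, and in Gata3 it begins 207 bases before the start. The cAMP response element was in 1 of the 8, Areg, where it begins 91 bases before the start, against 1.59% of all windows. The GATA motif was in 0 of the 8 and in 10.3% of all windows, and the forkhead motif in 0 of the 8 and in 3.21% of all windows. A match is a match of letters only.

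The deposited values are log2 levels after robust multichip averaging, with array medians between 5.93 and 6.12. The array of the final 09I1 sample differed from the rest. Set against each other array over the probe sets that passed the filter, it had a median r of 0.896, while the other 9 arrays had 0.958 to 0.973. The 3′ minus 5′ signal of the beta-actin control, a common check of RNA integrity, was 2.61 log2 units on it and 0.72 to 0.96 on the rest. Mean changes of tested members and list medians are therefore also given without this tumor, as are those of the other named genes where leaving it out moves them by over 1.5 times. Luminal keratin genes had high levels on every array: Krt18 ran from 11.86 to 12.79 in final samples and from 12.10 to 12.74 in basal samples, and Krt8 from 11.53 to 12.58 in final samples and from 11.16 to 12.58 in basal samples. These are bulk samples, in which fewer cells of a type and less RNA per cell cannot be told apart.

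No gene of the axis passed the test in either direction. With limma, 0 of the 9 tested members had an adjusted p under 0.05, where the share called among all 23281 tested probe sets was 0% in each direction. At an unadjusted p under 0.05 the count was 0 of 9 members, against 4.02% of all tested probe sets. No member had the same sign in all 5 tumors, against 6.66% of tested probe sets, and in 0 of the 9 did final and basal levels not overlap, against 1.16%. The median change of the 9 tested members was -0.091, against -0.0023 over all tested probe sets, with 3 positive and 6 negative mean changes. Without 09I1 the sign of that median turned, to 0.12, and 7 mean changes were positive and 2 (Wnt4 and Tff3) negative. The tumors differed among themselves, and the widest changes were in 09I1, where Pgr and Greb1 were lower by over 3 log2 units in the final sample.

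**Figure D1:**
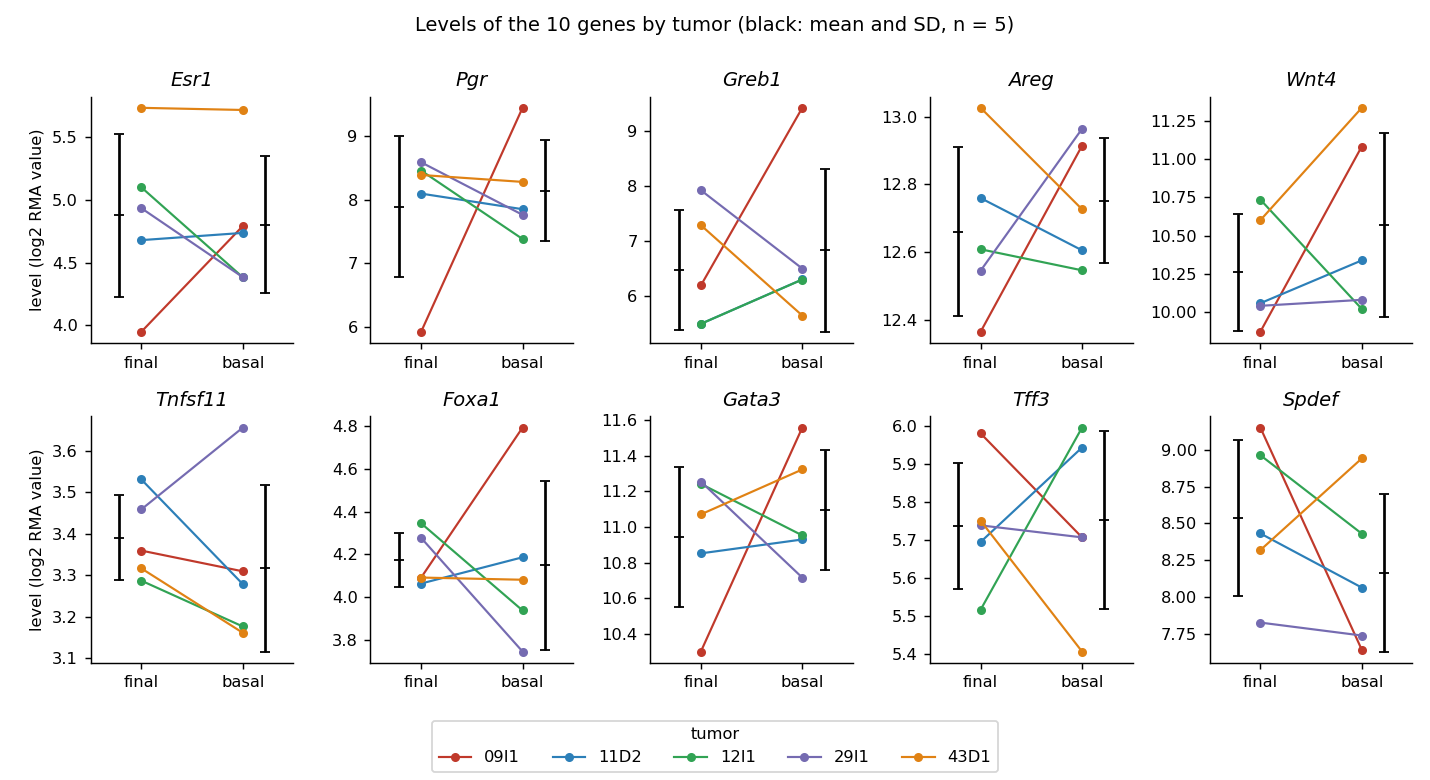
Log2 RMA level of each gene's brightest probe set in the final (left) and basal (right) sample of each tumor, with lines joining the samples of 1 tumor and black bars giving mean and SD (n = 5). The red line of 09I1 is the steepest for Pgr, Greb1, Gata3 and Spdef, and its basal sample is the highest of the 10 for Pgr, Greb1, Foxa1 and Gata3.

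Esr1 encodes the estrogen receptor alpha. Its log2 levels were 3.95, 4.68, 5.10, 4.93 and 5.73 in the final samples, and 4.79, 4.74, 4.38, 4.38 and 5.72 in the basal samples. Tumor 43D1 was the highest in both groups, the final sample of 09I1 was the lowest of all, and the groups overlapped. The mean change was 0.077 ± 0.23 (SE, n = 5 tumors), with a 95% confidence interval from -0.47 to 0.62 and a limma adjusted p of 0.977. Its direction was not settled: the mean change was 0.31 without 09I1, -0.083 without 12I1 and -0.041 without 29I1. All 10 levels lay below the array medians, and that of the final 09I1 array lay below its lower quartile.

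Pgr encodes the progesterone receptor, a standard readout of estrogen receptor activity. Final samples had levels of 5.92, 8.10, 8.46, 8.59 and 8.39, and basal samples had 9.45, 7.85, 7.38, 7.76 and 8.28. Tumor 09I1 thus held both the lowest and the highest of the 10 values, and its change was -3.52. In the other 4 tumors the final level was the higher one, by 0.25 (11D2), 1.08 (12I1), 0.83 (29I1) and 0.11 (43D1). Over 5 tumors the mean change was -0.25 ± 0.64 (SE), with an interval from -1.76 to 1.26 and a limma adjusted p of 0.977. Without 09I1 it was 0.56 ± 0.19 (SE, n = 4 tumors), with an interval from 0.098 to 1.03, an unadjusted limma p of 0.0253 and a limma adjusted p of 0.560, so it did not pass there either. In that fit 8.02% of all tested probe sets had an unadjusted p under 0.05.

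Greb1, whose product binds the estrogen receptor and is induced by estrogen in human breast cancer cells, varied more than any other member, with an SD of 1.24 over the 10 arrays. Its brighter probe set read 6.20, 5.50, 5.50, 7.93 and 7.29 in the final samples, and 9.43, 6.31, 6.30, 6.50 and 5.65 in the basal samples. The tumors went in opposite directions, with changes of -3.23 (09I1), -0.81 (11D2) and -0.81 (12I1) but 1.42 (29I1) and 1.64 (43D1). The basal sample of 09I1 stood far above the other 4 basal samples, which lay between 5.65 and 6.50. Over the 5 tumors the mean change was -0.35 ± 0.68 (SE, n = 5), with an interval from -1.96 to 1.25 and a limma adjusted p of 0.977, and it was 0.36 without 09I1. The dimmer Greb1 probe set did not follow the brighter one. It ranged from 4.79 to 5.78 in final samples and from 4.67 to 5.09 in basal samples, and in 09I1, where the brighter one was lower by 3.23, it was higher by 0.69.

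**Figure D2:**
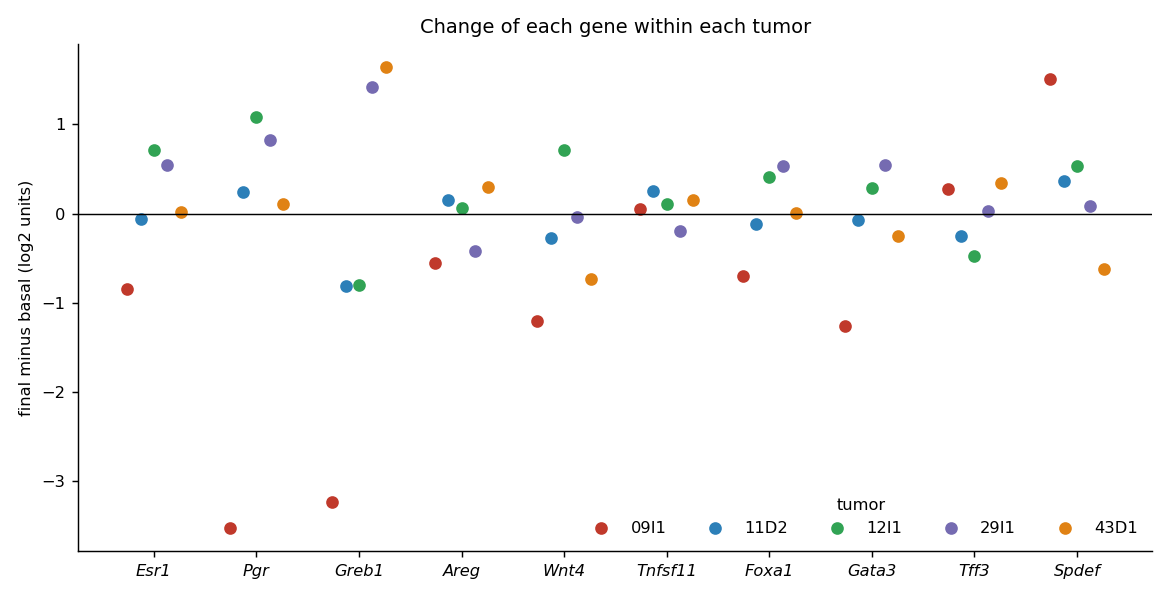
Final minus basal level (log2 units) of each gene's brightest probe set in each of the 5 tumors. The points of 09I1 lie at -3.52 for Pgr and -3.23 for Greb1, while the other tumors stay between -0.81 and 1.64 for all 10 genes.

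Among the secreted factors, Areg encodes amphiregulin, the EGF receptor ligand that carries the estrogen signal to neighbouring cells in ductal growth. It read 12.37, 12.76, 12.61, 12.55 and 13.03 in final samples, and 12.91, 12.61, 12.55, 12.96 and 12.73 in basal samples. The groups overlapped, all 10 arrays lay within 0.66 log2 units of each other, and 26.8% of the 12255 tested genes had a smaller SD. The mean change was -0.091 ± 0.15 (SE, n = 5), with an interval from -0.44 to 0.26 and a limma adjusted p of 0.977, and it was 0.024 without 09I1.

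Wnt4 encodes a Wnt ligand that progesterone induces in luminal cells. Levels were 9.87, 10.06, 10.73, 10.04 and 10.60 in final samples, and 11.08, 10.34, 10.02, 10.08 and 11.33 in basal samples. The basal samples of 43D1 and 09I1 were the highest, and the groups overlapped. The change was negative in 4 of 5 tumors, from -1.21 in 09I1 to -0.040 in 29I1, and 0.71 in 12I1. On average the change was -0.31 ± 0.26 (SE, n = 5), with an interval from -0.93 to 0.31 and a limma adjusted p of 0.977. It was -0.085 without 09I1 and -0.56 without 12I1.

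Tnfsf11 encodes RANK ligand, through which progesterone drives proliferation of neighbouring cells in the mouse gland. Its brighter probe set read 3.29 to 3.53 in final samples and 3.16 to 3.66 in basal samples, and the dimmer one 2.93 to 3.39 in final samples and 2.97 to 3.18 in basal samples. Both lay below the lower quartile of all 10 arrays, and neither was tested. Without the filter, the brighter one had a change of 0.074 ± 0.083 (SE, n = 5; interval from -0.12 to 0.27). Tff3, the trefoil factor that estrogen induces in human breast cancer cells, ranged from 5.52 to 5.98 in final samples and from 5.41 to 5.99 in basal samples, and 20.7% of tested genes had a smaller SD. Its mean change was -0.016 ± 0.17 (SE, n = 5; interval from -0.42 to 0.39; limma adjusted p = 0.995), and it was -0.088 without 09I1, 0.043 without 11D2 and 0.10 without 12I1.

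Of the luminal transcription factor genes, Gata3 was high in all samples. The brighter probe set read 10.30, 10.85, 11.24, 11.25 and 11.07 in final samples, and 11.56, 10.93, 10.95, 10.72 and 11.32 in basal samples. As with Pgr, 09I1 held the lowest and the highest value. The mean change was -0.15 ± 0.25 (SE, n = 5), with an interval from -0.74 to 0.44 and a limma adjusted p of 0.977, and it was 0.12 without 09I1. The dimmer Gata3 probe set had the same pattern, with a change of -1.72 in 09I1 and a mean change of -0.42 ± 0.30 (SE, n = 5). Without 09I1 it averaged 9.50 in final and 9.59 in basal samples.

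Foxa1, a pioneer factor gene of the estrogen receptor, was dim on this array, ranging from 4.06 to 4.35 in final samples and from 3.75 to 4.79 in basal samples, and on 4 of the 10 arrays it lay below the lower quartile. Its SD was 0.13 in final and 0.40 in basal samples (n = 5 each), and the groups overlapped. Averaged over tumors, the change was 0.025 ± 0.19 (SE, n = 5; interval from -0.41 to 0.46; limma adjusted p = 0.992), 0.21 without 09I1, -0.071 without 12I1 and -0.10 without 29I1. Its basal level was again the highest in 09I1, at 4.79, and the change there was -0.70.

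Spdef, an ETS factor gene of luminal and secretory cells, went the other way in 09I1. The levels were 9.15, 8.43, 8.96, 7.83 and 8.32 in final samples, and 7.64, 8.06, 8.43, 7.74 and 8.94 in basal samples. The groups overlapped, and 09I1 had the highest final and the lowest basal level, a change of 1.51. The change was positive in 4 of 5 tumors and -0.62 in 43D1. The mean change was 0.37 ± 0.29 (SE, n = 5), with an interval from -0.30 to 1.05 and a limma adjusted p of 0.977, and it was 0.091 without 09I1.

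**Figure D3:**
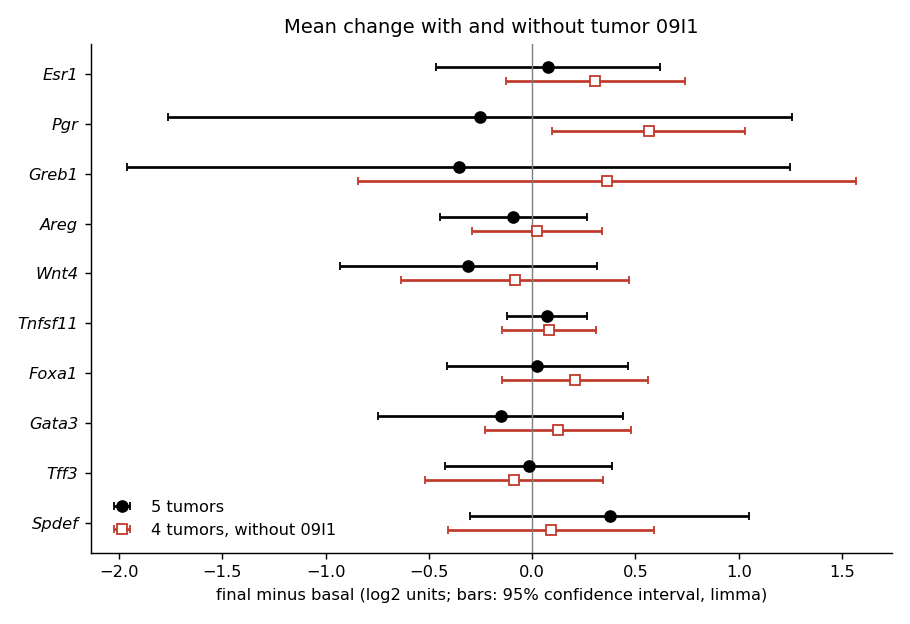
Mean final minus basal change (log2 units) of each gene with its 95% confidence interval from limma, for 5 tumors (black circles) and for the 4 tumors other than 09I1 (open red squares). Every interval over 5 tumors holds 0, and the interval of Pgr over 4 tumors, from 0.098 to 1.03, does not.

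Within single tumors, 7 of the 9 tested members were lower in the final sample of 09I1, where 47.8% of all tested probe sets were lower. In that tumor 4 of the 9 (Pgr, Greb1, Wnt4 and Gata3) were lower by over 1 log2 unit, against 12.6% of tested probe sets, and 1 (Spdef) was higher by over 1 unit, against 8.93%. The changes of all tested probe sets had an SD of 0.89 in 09I1, while it was 0.47 to 0.58 elsewhere. Markers of luminal epithelium were lower there too, with 9 of 12 lower and a median change of -0.54. The log2 of their summed unlogged levels was 14.73 in the final and 15.38 in the basal sample. Over all tumors that value ran from 14.73 to 15.37 in final and from 15.02 to 15.38 in basal samples. Other marker lists moved in 09I1 as well. Those of red blood cells (median -1.15, 5 of 5 lower), fibroblasts (-0.70, 6 of 7) and myoepithelium (-0.69, 7 of 9) were lower. Those of adipocytes (2.33, 1 of 5 lower), the cell cycle (1.36, 0 of 10), T and NK cells (1.34, 0 of 7) and secretory alveolar epithelium (0.73, 1 of 7) were higher. The part of these markers and of the beta-actin difference in the 09I1 values was not tested.

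In 12I1 and in 29I1, 2 of the 9 members were lower and 7 were higher, against 45.1% and 48.4% of tested probe sets lower in these tumors. The member median was 0.41 in 12I1 and 0.53 in 29I1. In 11D2, 6 of 9 were lower with a median of -0.078, against 54.1% of probe sets lower, and in 43D1, 3 of 9 were lower with a median of 0.017, against 50.8%. Outside 09I1, 1 member was higher by over 1 unit in each of 3 tumors, namely Pgr in 12I1 (where 1.84% of probe sets were), Greb1 in 29I1 (1.66%) and Greb1 in 43D1 (3.05%), and 0 were in 11D2 (2.84%). None of the 9 was lower by over 1 unit in these 4 tumors, against 1.42% (11D2), 1.89% (12I1), 4.39% (29I1) and 4.08% (43D1) of probe sets. Markers of other cell types moved in these tumors too. In 11D2, skeletal muscle markers had a median change of 5.07 and adipocyte markers one of 2.26. T and NK cell markers had one of 1.36, fibroblast markers one of 0.99 and red blood cell markers one of -1.29. In 12I1, secretory alveolar markers had a median change of 1.97 (1 of 7 lower) and red blood cell markers one of -2.63 (5 of 5 lower). Macrophage markers had one of -0.81 in 12I1. In 29I1, all tested markers of fibroblasts (7, median -1.68), adipocytes (5, median -2.12), endothelium (5, median -0.84) and the cell cycle (10, median -2.07) were lower, and myoepithelial markers had a median change of 1.03 (1 of 9 lower). Macrophage markers had a median change of -1.465 in 29I1 and secretory alveolar markers one of 1.03. In 43D1, all 10 cell cycle markers were lower (median -2.28), and secretory alveolar markers had a median change of 2.04. Macrophage markers had one of 1.21 there, T and NK cell markers one of 1.12 and myoepithelial markers one of -1.03. Their part in the members' values was not tested.

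The receptors and their responsive genes were compared by the sign of the change within a tumor. Esr1 and Foxa1 had the same sign in 5 of 5 tumors, both negative in 09I1 and 11D2 and positive in the other 3. Both genes were dim, and some of these changes were small: 0.017 and 0.010 in 43D1, and -0.058 and -0.12 in 11D2. Esr1 shared its sign with Pgr, with Greb1 and with Gata3 in 4 of 5 tumors each, with Areg, Wnt4 and Tff3 in 3 of 5, and with Spdef in 2 of 5. Pgr shared its sign with Areg and Foxa1 in 4 of 5 tumors, with Greb1, Gata3 and Spdef in 3 of 5 and with Wnt4 and Tff3 in 2 of 5. Without 09I1, Pgr and Greb1 had the same sign in 2 of 4 tumors. The Greb1 counts use its brighter probe set. The dimmer one had the sign of Esr1 in 29I1 only, and that of Pgr in 11D2 and 29I1 only. With 5 tumors, such counts are a description only.

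Levels over the 10 arrays, which come from 5 tumors and share 1 normalization, were compared as a description. Pearson's r is given over all 10 arrays, over the 8 arrays without 09I1 and over the 9 arrays without its final sample alone, in that order. Between Pgr and Gata3 it was 0.92, 0.71 and 0.84, and between Pgr and the dim Foxa1 0.60, 0.70 and 0.88. Between Pgr and Greb1 it was 0.52, 0.24 and 0.69, and between Pgr and Areg 0.60, 0.065 and 0.30. The value for Esr1 and Pgr also moved with that 1 array, at 0.62, 0.70 and 0.37. Esr1 and Wnt4 had 0.73, 0.82 and 0.67, and Esr1 and Greb1 had 0.037, 0.069 and -0.043. For Esr1 and Foxa1, whose changes shared their sign in every tumor, r was 0.19, 0.42 and 0.16. For Tff3, r was negative with both receptors, at -0.68, -0.60 and -0.59 for Esr1 and -0.58, -0.64 and -0.43 for Pgr. Its levels on the 10 arrays lay within 0.59 log2 units of each other. Within tumors, the changes of Tff3 and Esr1 shared their sign in 3 of 5. Among 2301 other genes with an SD of at least 0.5, the gene most like Pgr by the lower of r over 10 and over 8 arrays was Cited4, a coactivator gene whose product binds CBP and p300, with 0.92, 0.97 and 0.97. Cited4 read 7.22, 9.74, 9.98, 10.63 and 9.94 in final samples, and 11.63, 8.70, 7.79, 8.11 and 9.74 in basal samples. Marchf8, Retreg3, Sesn1 and rnf141 followed, with a lower r of 0.86 to 0.91, and 0.80 to 0.94 over the 9 arrays. The genes most like Esr1 were Acadsb, with 0.95, 0.94 and 0.94, Robo2, Jade1, Fam13c and Pcdhb12, with a lower r of 0.89 to 0.92 for these 4, and 0.88 to 0.92 over the 9 arrays. For Esr1 and for each of these genes, both arrays of 43D1 had higher levels than all other arrays. The r without 43D1 was not computed.

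**Figure D4:**
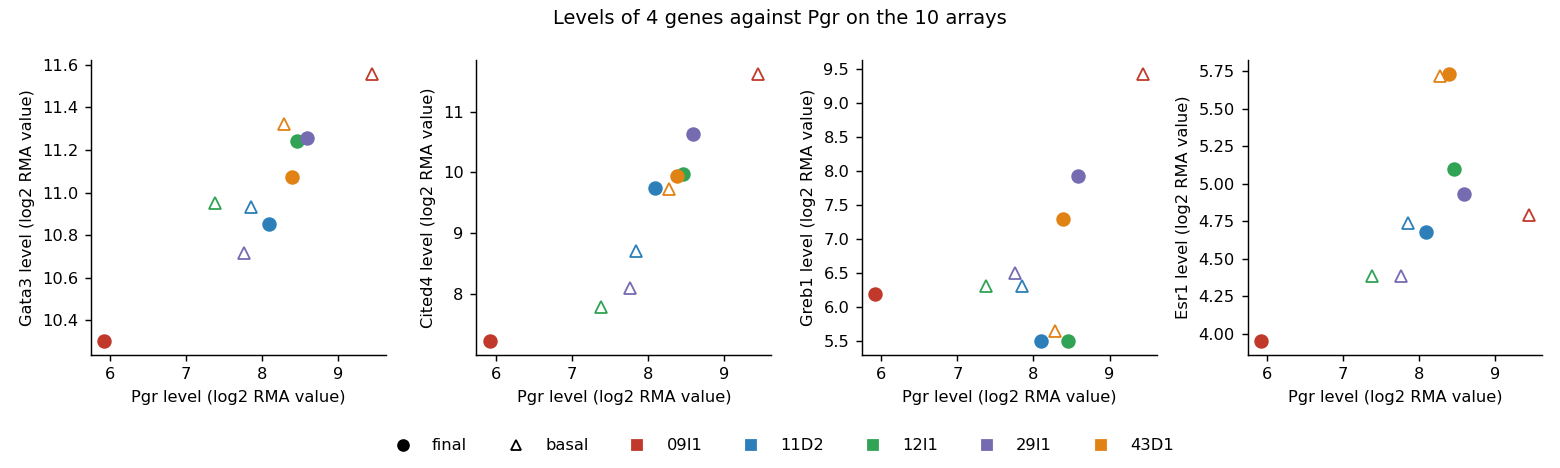
Log2 RMA levels of Gata3, Cited4, Greb1 and Esr1 against Pgr on the 10 arrays, with filled circles for final and open triangles for basal samples and 1 colour per tumor. Both 09I1 arrays sit at the ends of the Pgr scale (5.92 final, 9.45 basal), and between them r with Pgr is 0.97 for Cited4 and 0.24 for Greb1 over the other 8 arrays.

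Other estrogen response genes showed no call in either direction. Of 23 listed, 22 were tested, and 0 rose and 0 fell by limma at an adjusted p under 0.05. At an unadjusted limma p under 0.05 there was 1, against 4.02% of all tested probe sets. The list's median change was 0.13, and it was 0.036 without 09I1. By tumor the list's median was 0.041 in 09I1 and -0.019 to 0.15 elsewhere. Rerg, a Ras-like gene induced by estrogen in human breast cancer cells, averaged 7.06 ± 0.56 in final and 6.33 ± 0.26 in basal samples (SD, n = 5 each), a change of 0.73 (0.59 without 09I1) that was positive in 4 of 5 tumors. Ccn5, a matricellular protein gene induced by estrogen in the same cells, had a change of 1.15, with 3.78 in 43D1. The corepressor gene Nrip1 had a change of 0.35 and the early growth response gene Egr3 one of 0.22 (0.11 without 09I1). Each of these 4 had a limma adjusted p of 0.977.

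Of 10 other progesterone response genes, 7 were tested, 0 rose and 0 fell, with 0 at an unadjusted p under 0.05, and the median change was 0.28 (0.29 without 09I1). By tumor the list's median was 0.17 (09I1), 0.74 (11D2), 0.72 (12I1), 0.71 (29I1) and -0.36 (43D1). Prlr, the prolactin receptor gene, averaged 12.63 ± 0.41 in final and 12.34 ± 0.47 in basal samples (SD, n = 5 each), a change of 0.28 (0.56 without 09I1). Like Pgr it was lower in 09I1 (a change of -0.82) and higher in the other 4 tumors (0.036 to 1.05). Several luminal epithelium markers had these same signs, so the pattern was not particular to Pgr and Prlr. The kinase gene Sgk1 had a mean change of 0.43, Id4, an inhibitor of helix-loop-helix factors, one of -0.42 and the clock gene Per1 one of 0.27, each with a limma adjusted p of 0.977.

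Of 24 other steroid receptor and coregulator genes, 20 were tested, and 0 rose and 0 fell. At an unadjusted limma p under 0.05 there was 1, against 4.02% of all tested probe sets. The list's median change was -0.097, and it was 0.0054 without 09I1. In 09I1, 17 of the 20 were lower, against 47.8% of all tested probe sets, and the list median was -0.49. Nr3c2, the mineralocorticoid receptor gene, had a change of 0.51, Esrrg, an orphan receptor gene, one of 0.25 and the corepressor gene Tle3 one of 0.26 (0.44 without 09I1). Med1, the Mediator subunit that contacts nuclear receptors, had a change of -0.29 and was lower in 5 of 5 tumors, from -0.65 in 09I1 to -0.026 in 12I1. Of all tested probe sets, 6.66% had the same sign in all 5 tumors. All 4 named genes had a limma adjusted p of 0.977.

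Of 13 estrogen synthesis and metabolism genes, 6 were tested, and 0 rose and 0 fell, with 0 at an unadjusted p under 0.05 and a median change of 0.017 (0.0027 without 09I1). Hsd17b7, which encodes an estradiol-forming dehydrogenase that also serves in cholesterol synthesis, had a change of -3.52 in 09I1, while the other tumors had -0.10 to 0.68. Its mean change was -0.44, and it was 0.33 without 09I1. Hsd17b1, another estradiol-forming enzyme gene, had a mean change of 0.20 (-0.011 without 09I1), Hsd17b4, which encodes a peroxisomal enzyme that oxidises estradiol, one of 0.056 (0.19 without 09I1), and Cyp1b1, which encodes an estrogen hydroxylase, one of -0.26. The aromatase gene Cyp19a1 had no tested probe set.

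Of 15 receptors and partners of the secreted factors, 13 were tested, and 0 rose and 0 fell. At an unadjusted limma p under 0.05 there was 1, against 4.02% of all tested probe sets. The list's median change was -0.11, and it was 0.080 without 09I1. Lgr5, a receptor for R-spondins that strengthens Wnt signals, averaged 6.23 ± 0.47 in final and 5.19 ± 0.40 in basal samples (SD, n = 5 each). Its change was 1.04 ± 0.24 (SE), positive in 5 of 5 tumors from 0.33 in 43D1 to 1.96 in 09I1, with a limma adjusted p of 0.850, and 0.81 without 09I1. Of all tested probe sets, 6.66% had the same sign in all 5 tumors. Egfr, the receptor gene for amphiregulin, had a change of 0.35, the Wnt target gene Axin2 one of 0.37 (0.080 without 09I1) and Lgr4, another R-spondin receptor gene, one of -0.37 (-0.019 without 09I1). These 3 had a limma adjusted p of 0.977.

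**Figure D5:**
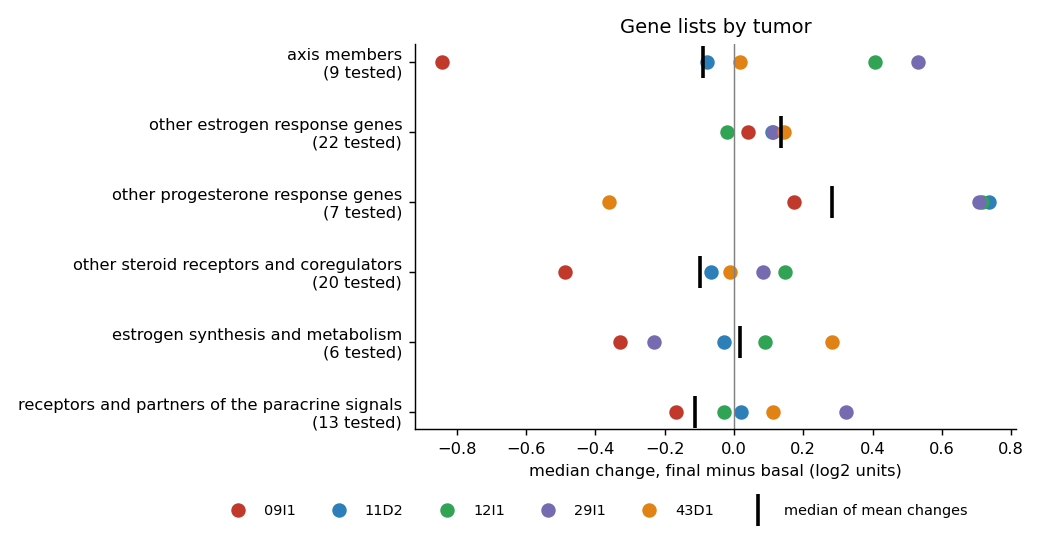
Median final minus basal change (log2 units) of the tested genes of each list in each tumor (coloured points) and the median of the mean changes over 5 tumors (black bars). The receptor axis lies at -0.84 in 09I1 and 0.53 in 29I1, and the other estrogen response genes lie between -0.019 and 0.15 in all 5 tumors.

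Cell type markers were listed to show what else the samples held, and 0 genes of any of these lists passed limma's threshold. Median changes over 5 tumors, and in brackets without 09I1, were 0.073 (0.15) for 12 tested markers of luminal epithelium, 1.28 (1.40) for 7 of secretory alveolar epithelium, 0.57 (0.60) for 5 of adipocytes, -0.077 (-0.048) for 6 of macrophages and 0.61 (0.41) for 7 of T and NK cells. They were 1.23 (1.49) for 6 of skeletal muscle, -0.91 (-1.09) for 5 of red blood cells and -0.57 (-1.11) for 10 of the cell cycle. By tumor, the skeletal muscle median was 5.07 in 11D2 and -0.13 to 0.45 elsewhere. The sign turned for myoepithelium at -0.10 (0.077, 9 tested), fibroblasts at -0.24 (0.026, 7 tested) and endothelium at 0.14 (-0.031, 5 tested).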

How the data were processed

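Expression was measured on 10 Affymetrix rat genome arrays, 1 per sample. The deposited log2 values were made by the authors with robust multichip averaging (RMA), per the submitters' processing notes, and GeneSpring GX 7.3 served for the authors' paired t-test, per the labels' design text. That text also names a filter on control and near-background sequences, but 57 control probe sets were in the table. Of the other probe sets, 20826 carried 1 gene symbol, 436 several and 9780 none.

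Control probe sets and the 25% with the lowest mean were left out, which left 23281. The change, final minus basal, came from a limma model (3.58.1, under R 4.3.3) that held a term per tumor and an intensity trend. Two-sided p-values received a Benjamini-Hochberg adjustment over all tested probe sets. A gene was represented by its brightest probe set. The fit was tested on simulated data. The pairing comes from the tumor codes in the labels, and deviations from group means of the samples of 1 tumor correlated at -0.15 to 0.22 across probe sets.

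The members, the 6 pathway lists (the members' among them) and the 11 marker lists (178 entries, 167 with a probe set) were chosen with earlier results of these data known. Named genes are all members, up to 4 genes with the smallest p in each other list of the pathway, and the 5 genes most like each receptor by the lower of r over 10 and over 8 arrays; Krt8, Krt18 and Cyp19a1 were named after their values were seen. Alternatives were no block, a random block, other filters, cyclic loess, median centring, array weights, no trend, the methods' t-test, the mean of probe sets and leaving out each tumor. Precision is limited by the number of arrays. Plots were made with matplotlib 3.10.9.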

Additional observations from a re-analysis of the deposited data

Results flagged for a closer look

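Among 45 sets of 5 values (each member probe set's final levels, basal levels and changes, and 3 array measures in each group), 7 held 1 value that stood clear of its group by Dixon's criterion. By chance 5% of such sets do, or about 2.25 here, but the sets are not independent. A change is made of a final and a basal level, and the array measures describe the same arrays. All 7 were of tumor 09I1, and all but its basal Greb1 level drew on its final array. The 7 are therefore not separate surprises. Its Pgr level in the final sample was 5.92, against 8.10 to 8.59 in the other final samples, and its Pgr change was -3.52, against 0.11 to 1.08. Its basal level of the brighter Greb1 probe set was 9.43, against 5.65 to 6.50 in the other basal samples. Its final level of the dimmer Greb1 probe set was 5.78, against 4.79 to 4.98. Its final array had a median correlation of 0.896 with the other arrays, against 0.961 to 0.973 for the other final arrays. The 3′ minus 5′ difference on that array was 2.61 for beta-actin, against 0.72 to 0.83, and 0.93 for GAPDH, against 0.094 to 0.12. The high basal Greb1 level was read on the other array of this tumor, whose 3′ minus 5′ difference was 0.96 for beta-actin and 0.23 for GAPDH.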

How the results depend on the processing

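The count of probe sets past the threshold was 0 with all alternatives, including the fit with no replicate block, where the pairing was dropped, and the methods' t-test. Recomputed under the alternatives, 118 of 133 member changes kept their direction and none passed the threshold, while 15 turned direction. Many of the 118 could not have turned. The mean change stays the same by design with no block, a random block, other filters, no trend or the methods' t-test. All 15 came from array weights, cyclic loess, median centring or leaving out a tumor. With array weights, the change was 0.32 for Pgr, 0.052 for Areg and 0.0072 for Gata3. With cyclic loess it was -0.026 for Foxa1, and with centring on array medians 0.016 for Tff3. With 1 tumor left out, changes ran from -0.083 to 0.31 for Esr1, -0.59 to 0.56 for Pgr, -0.85 to 0.36 for Greb1, -0.19 to 0.024 for Areg, -0.10 to 0.21 for Foxa1, -0.32 to 0.12 for Gata3 and -0.11 to 0.10 for Tff3. The cause was not tested. Over all 10 members the median change was -0.053, and it ran from -0.12 to 0.11 with 1 tumor left out. Members below a stricter filter on the lowest 50% (Esr1, Foxa1, Tff3 and Tnfsf11) could not be recomputed there, and Tnfsf11 was tested in the fit with no filter only. Dim probe sets limit what can be said of Esr1, Foxa1 and Tnfsf11.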

Other observations

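Greb1 and the cell cycle markers were set side by side by tumor after their values had been seen. The brighter Greb1 probe set had changes of -3.23 (09I1), -0.81 (11D2), -0.81 (12I1), 1.42 (29I1) and 1.64 (43D1). The dimmer one did not follow it, with 0.69, 0.12, -0.018, 0.31 and -0.25 in the same order. The median changes of the 10 cell cycle markers in these tumors were 1.36, -0.072, 0.26, -2.07 and -2.28. All 10 markers were lower in 29I1 and in 43D1, and 0 were lower in 09I1. No test was run on this pair of measures, and the final array of 09I1 stood apart.

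Both samples of 09I1 held extreme levels of the members. The final sample was the lowest of the 10 arrays for 5 members (Esr1, Pgr, Areg, Wnt4 and Gata3), and the basal sample was the highest for 4 (Pgr, Greb1, Foxa1 and Gata3). For Greb1, the final level of 6.20 lay within the 5.50 to 7.93 of the other final samples.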
